A study of Homo sapiens with 6 samples.

Results

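The genes described here encode proteins of the lysosome: membrane proteins, cathepsins and other hydrolases, the receptors that carry them there, and regulators of the organelle. They were taken as a list of 52 gene symbols, and all 52 were found among the 20115 genes of the authors' deposited table. Of the 52, 3 (CTSZ, PPT1 and SGSH) also had a downstream-of-gene (DoG) region, transcription that continues past a gene's end, among the 2014 regions of the second table. RNA came from MDA-MB-231, a human triple-negative breast cancer cell line, as 3 libraries of control cells and 3 of UBE3D knockdown cells, whose integrated lentiviral hairpins against UBE3D were switched on with doxycycline. The labels do not say whether the control cells carried a hairpin or received doxycycline, and they mark every sample as pooled. The deposited tables hold 1 comparison, knockdown over control, with no value per library, so depth is unknown and no replicate can be shown on its own. As nothing says that the libraries came from separate cultures, the p-values cover only variation between these 6 libraries, which could be technical.

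Lysosomes break down proteins, glycans and lipids with acid hydrolases, most of which are tagged with mannose 6-phosphate in the Golgi and delivered by receptors. The proton pump V-ATPase keeps the lumen acid, and heavily glycosylated membrane proteins line the organelle's inside. The transcription factors TFEB and TFE3 bind a palindromic promoter element, known as CLEAR, in many lysosomal genes, and tumour cells are known to secrete part of their cathepsins.

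Rises, falls and differences are given as log2 fold changes ± SE (3 libraries a group). They are the authors' values, shrunken toward 0, so unshrunken changes would be larger. UBE3D itself fell by 0.80 ± 0.37 (adjusted p = 0.00632) in the authors' deposited table. Its mean normalized count was 36.7, and the call was lost in a Wald test of the deposited change over its SE (adjusted p = 0.295), which on shrunken values can only weaken calls. CPSF3, which encodes the endonuclease CPSF73 of the series title, had a log2 fold change of -0.12 ± 0.13 (adjusted p = 0.464) in the authors' deposited table. In the same table the MDA-MB-231 genes VIM, CD44 and AXL had means of 7835, 8692 and 11376 normalized counts. The receptor genes ESR1 and PGR, which the line is known to lack, had means of 22.2 and 50.2. ERBB2, also a receptor gene of the triple-negative definition, had a higher mean of 758, and EPCAM had one of 382. Of 12 genes listed for the identity of this line and of breast cells, 3 fell and 1 rose, beside 7.93% and 4.62% of all genes. EPCAM fell by 0.67 ± 0.21 (adjusted p = 0.000783), VIM by 0.34 ± 0.16 (adjusted p = 0.0349) and CD44 by 0.26 ± 0.12 (adjusted p = 0.0427), and CDH1 rose by 1.06 ± 0.39 (adjusted p = 0.00125), in the authors' deposited table. The calls of VIM, CD44 and CDH1 were lost in that Wald test, and the part of these changes in the lysosomal values was not tested. In bulk RNA, fewer cells that express a gene and less RNA per cell cannot be told apart.

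With an adjusted p under 0.05 as the threshold, 20 of the 52 genes fell and 2 rose in the authors' deposited table, against 7.93% of all genes lowered and 4.62% raised. The 52 genes were chosen with earlier results of these data known, so these counts are a description and no independent support. Among the 9743 genes whose mean reached 100 normalized counts the shares were 12.4% lowered and 7.45% raised, and 48 of the 52 lysosomal genes, including all 22 that changed, were in that range. The median log2 fold change of the 52 genes was -0.21, beside -0.03 over all genes, and 36 of the 52 lay below 0. Most of the falls were small: 2 were at least 2-fold, 4 lay from 0.5 to 1 log2 unit and 14 under 0.5. Of the 20 falls and 2 rises, 13 falls and 0 rises passed in that Wald test, where 4.11% of all genes were lowered. The calls lost in it were those of ATP6AP1, CLN3, CTSS, LAMP2, LIPA, SGSH, SMPD1, TMEM192 and TPP1, with adjusted p from 0.0612 (TPP1) to 0.427 (CLN3). With changes also shifted so that the median of all genes was 0, an alternative chosen after seeing the data, 8 falls passed, where 3.66% of all genes were lowered. LAPTM4B, CTSB, GLB1, PSAP and ATP6AP2 then missed the threshold too, with adjusted p from 0.0519 (LAPTM4B) to 0.0803 (CTSB).

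**Figure D1:**
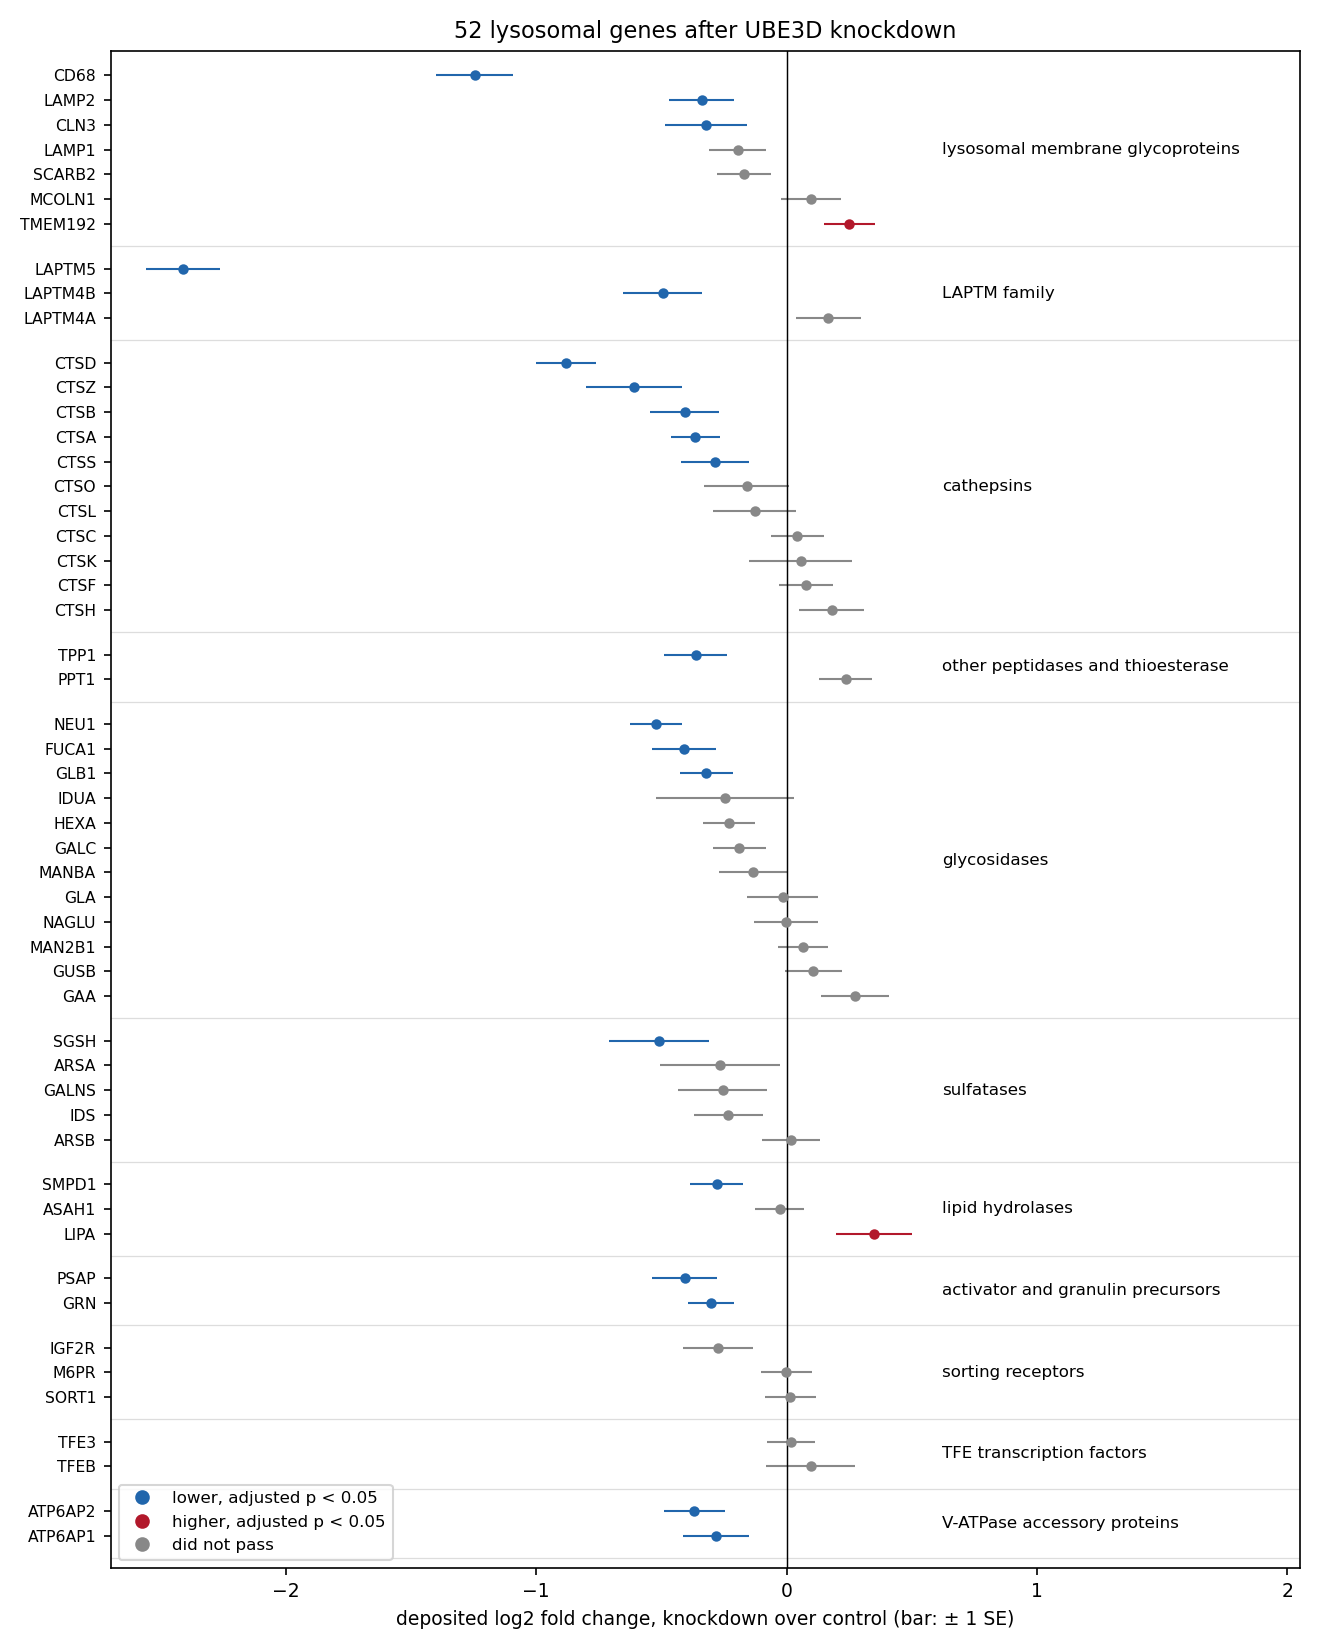
Log2 fold change of each of the 52 lysosomal genes, knockdown over control, as the authors deposited it; bars are 1 SE, and genes are grouped by role. LAPTM5 and CD68 stand farthest to the left at -2.41 and -1.25, and the raised genes TMEM192 and LIPA lie at 0.25 and 0.35.

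The falls took in most of the abundant lysosomal transcripts. Of the 14 genes whose mean was at least 1000, 9 fell and none rose, where 18.2% of all genes in that range were lowered and 3.43% raised. Of the 34 with a mean from 100 to under 1000, 11 fell and 2 rose, where 10.9% of all such genes were lowered and 8.50% raised. None of the 4 with a lower mean (ARSA, CTSK, CTSO and IDUA) passed. Per kilobase of annotated exon, PSAP had the highest level of the 52 (1909 mean normalized counts per kb), followed by LAPTM4A (1315), CTSD (1278), CTSZ (1016) and FUCA1 (662). Of these 5 genes LAPTM4A alone did not pass, and the lowest per-kilobase level was that of IDUA (10.8). The length used was all annotated exon bases of a gene, from 1887 (CTSK) to 19341 (SCARB2), so this order depends on the annotation. In GENCODE, exons of 11 of the 52 genes overlap those of another gene of the table, 9 of them on the opposite strand, and reads there may be shared; LAPTM5 is not among them.

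**Figure D2:**
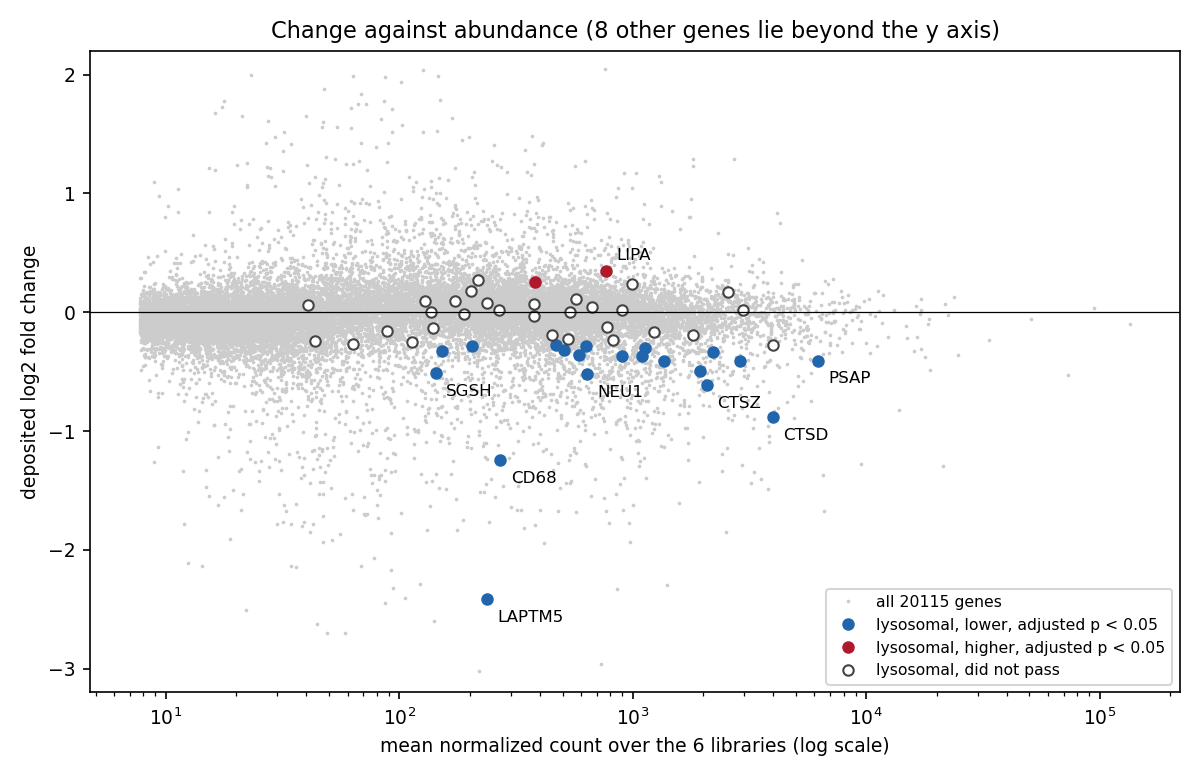
Log2 fold change against the mean normalized count over the 6 libraries (log scale), with all genes in grey and the 52 lysosomal genes as large points. The lowered genes reach from SGSH, at a mean of 143, to PSAP, at a mean of 6183, and 8 genes outside the list lie beyond the vertical axis.

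The LAPTM family, small lysosome-associated membrane proteins with several membrane-spanning segments, held the largest fall and a gene that did not pass. LAPTM5, on chromosome 1 (30732469 to 30757820, GRCh38), fell by 2.41 ± 0.15 (adjusted p = 1.51e-58), 5.32-fold lower, at a mean of 237 counts in the authors' deposited table. That was rank 12 among the falls of all 20115 genes. LAPTM5 is known mainly from blood cells, where it promotes the degradation of antigen receptors. LAPTM4B, a family member often overexpressed in carcinomas, fell by 0.49 ± 0.16 (adjusted p = 0.00130) at a mean of 1947 in the authors' deposited table. GENCODE lists 2 pseudogenes named after LAPTM4B, with which reads could be shared. LAPTM4A, which takes part in globotriaosylceramide synthesis, had a log2 fold change of 0.17 ± 0.13 (adjusted p = 0.293) at a mean of 2559 in the authors' deposited table. Its 95% interval from the SE was -0.09 to 0.42.

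Among 7 other membrane proteins, 3 fell and 1 rose, beside 7.93% of all genes lowered and 4.62% raised. CD68, a heavily glycosylated member of the LAMP family best known as a macrophage marker, lies on chromosome 17 (7579467 to 7582113). It fell by 1.25 ± 0.15 (adjusted p = 1.35e-15), 2.37-fold lower, at a mean of 271 in the authors' deposited table. An unnamed gene model on the same strand covers 81.7% of the exon bases of CD68 in GENCODE, so part of the CD68 reads may be assigned differently under another annotation. LAMP2, which also serves as the receptor of chaperone-mediated autophagy, fell by 0.34 ± 0.13 (adjusted p = 0.0106), and its paralog LAMP1 had a log2 fold change of -0.20 ± 0.11 (adjusted p = 0.158), both in the authors' deposited table. CLN3, the gene of juvenile Batten disease, fell by 0.32 ± 0.16 (adjusted p = 0.0483) in the authors' deposited table. TMEM192, a lysosomal membrane protein often used as a tag to purify the organelle, rose by 0.25 ± 0.10 (adjusted p = 0.0305) in the authors' deposited table. SCARB2, the receptor that carries glucocerebrosidase, and MCOLN1, a calcium-permeable channel, had log2 fold changes of -0.17 (adjusted p = 0.212) and 0.10 (adjusted p = 0.559) in the authors' deposited table.

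LAPTM5 and CD68 are also used as markers of macrophages, so the other markers of that cell type are given beside them. Of 14 further macrophage markers, 12 were in the table, and none of the 12 passed. Their means ran from 9.71 (FCER1G) to 89.4 (CSF1R) normalized counts, with 11 of the 12 under 50, where the lowest mean of the whole table was 7.74. The log2 fold changes of these 12 ran from -0.47 to 0.01, with a median of -0.10, and 11 of the 12 lay below 0, as did 63.3% of all genes with a mean under 100. CD163 (-0.47, adjusted p = 0.0517, in the authors' deposited table) was lowered at a threshold of 0.1. LYZ and TYROBP were looked up by symbol and not found in the table. CD14 and PTPRC had means of 15.6 and 43.7 in the authors' deposited table. The part of such cells in the change of LAPTM5 or CD68 was not tested.

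Of the 11 cathepsins, 5 fell, none rose and 6 did not pass, beside 7.93% of all genes lowered and 4.62% raised. CTSD, the major aspartic protease of the lysosome, fell by 0.88 ± 0.12 (adjusted p = 7.99e-13), 1.84-fold lower, at a mean of 3994 counts in the authors' deposited table. It lies on chromosome 11 (1752752 to 1764573), where GENCODE places an unnamed same-strand gene model over 41.7% of its exon bases. CTSZ, a cysteine carboxypeptidase that binds integrins, fell by 0.61 ± 0.19 (adjusted p = 0.000894), 1.53-fold lower, at a mean of 2070 in the authors' deposited table. CTSB, a cysteine protease that tumour cells are known to secrete, fell by 0.41 ± 0.14 (adjusted p = 0.00270), and CTSA, a serine carboxypeptidase, by 0.36 ± 0.10 (adjusted p = 0.000341), in the authors' deposited table. CTSS, which trims the invariant chain of MHC class II, fell by 0.29 ± 0.14 (adjusted p = 0.0462) in the authors' deposited table. The cysteine protease genes CTSL (-0.13, adjusted p = 0.503) and CTSC (0.04, adjusted p = 0.809), with means of 776 and 671, did not pass in the authors' deposited table. CTSF had a log2 fold change of 0.08 (adjusted p = 0.628) and CTSH, an aminopeptidase, one of 0.18 (adjusted p = 0.244), each as in the authors' deposited table.

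Of 22 hydrolases other than cathepsins, 6 fell (27.3%) and 1 rose (4.55%), with a median log2 fold change of -0.21. Over all genes 7.93% were lowered and 4.62% raised, and over those whose mean reached 100, 12.4% and 7.45%. Among 12 glycosidases, NEU1, the lysosomal sialidase, fell by 0.52 ± 0.10 (adjusted p = 6.87e-07) in the authors' deposited table. FUCA1, the alpha-fucosidase, fell by 0.41 ± 0.13 (adjusted p = 0.00139), and GLB1, the beta-galactosidase, by 0.32 ± 0.11 (adjusted p = 0.00392) in the authors' deposited table. Exons of TMPPE on the same strand overlap 1.90% of those of GLB1. TMPPE rose by 0.41 ± 0.13 (adjusted p = 0.00185) in the authors' deposited table, and its part in the GLB1 value was not tested. NEU1, GLB1 and the cathepsin CTSA are known to form a complex in the lysosome, and all 3 of its genes were lowered; this trio was singled out after the values were seen. The other 9 glycosidase genes did not pass, with GUSB at 0.11, GALC at -0.19 and MAN2B1 at 0.07 in the authors' deposited table. GENCODE lists pseudogenes named after GUSB, FUCA1, IDS and CTSL, so these values are uncertain to that extent. GAA, the acid alpha-glucosidase (0.27, adjusted p = 0.0588), HEXA, a beta-hexosaminidase subunit (-0.23, adjusted p = 0.0600), and PPT1 (0.24, adjusted p = 0.0535) lay just outside the threshold in the authors' deposited table.

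Of 5 sulfatases only SGSH, which acts on heparan sulfate, passed, with a fall of 0.51 ± 0.20 (adjusted p = 0.00575) at a mean of 143 in the authors' deposited table. Beside this 1 of 5, 7.93% of all genes were lowered. IDS, the iduronate sulfatase, had -0.23 (adjusted p = 0.129), GALNS -0.25 (adjusted p = 0.159), ARSA -0.27 (adjusted p = 0.206) and ARSB 0.02 (adjusted p = 0.942), again from the authors' deposited table. Of 3 lipid hydrolase genes, 1 fell and 1 rose, beside 7.93% of all genes lowered and 4.62% raised. Both calls were lost in the Wald test. SMPD1, acid sphingomyelinase, fell by 0.28 ± 0.11 (adjusted p = 0.0153) in the authors' deposited table. LIPA, the acid lipase that frees cholesterol and fatty acids from lipoprotein esters, rose by 0.35 ± 0.15 (adjusted p = 0.0222), 1.27-fold higher, in the authors' deposited table. On the opposite strand, exons of the interferon-stimulated gene IFIT2 overlap 1.32% of the exon bases of LIPA, and IFIT2 rose by 0.60 ± 0.13 in the authors' deposited table. The part of IFIT2 reads in the LIPA value was not tested. The ceramidase gene ASAH1 had a log2 fold change of -0.03 (adjusted p = 0.876) in the authors' deposited table. The peptidase gene TPP1 fell by 0.36 ± 0.13 (adjusted p = 0.00441) in the authors' deposited table, and the thioesterase gene PPT1 did not pass.

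The precursor genes PSAP and GRN were lower, where 7.93% of all genes were, and the 3 sorting receptor genes did not pass. PSAP, whose product is cut into saposins that present sphingolipids to hydrolases, fell by 0.41 ± 0.13 (adjusted p = 0.00166) at a mean of 6183, the highest of the 52, in the authors' deposited table. GRN, the progranulin gene, fell by 0.30 ± 0.09 (adjusted p = 0.00228) in the authors' deposited table. SORT1, a receptor that takes both precursors to the lysosome, had a log2 fold change of 0.02 ± 0.10 (adjusted p = 0.940) in the authors' deposited table. Its 95% interval from the SE was -0.18 to 0.21. Of the mannose 6-phosphate receptors, IGF2R, the cation-independent one, had -0.28 ± 0.14 (adjusted p = 0.0643) and M6PR, the cation-dependent one, 0.00 ± 0.10 (adjusted p = 0.993) in the authors' deposited table. Exons of PHC1 on the opposite strand overlap 29.3% of those of M6PR.

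The regulators TFEB and TFE3 did not pass. TFEB had a log2 fold change of 0.10 ± 0.18 (adjusted p = 0.634), with a 95% interval from the SE of -0.25 to 0.45, at a mean of 128 in the authors' deposited table. TFE3 had one of 0.02 ± 0.10 (adjusted p = 0.931), with an interval of -0.17 to 0.21, at a mean of 901 in the authors' deposited table. Both are controlled largely through their location in the cell, which RNA levels do not show. Promoter sequences (RefSeq, GRCh38.p14, from 250 bases before to 50 after the start) were found for 39 of the 52 genes and searched for the E-box CACGTG, its extension TCACGTGA, and the full palindrome, which is TCACGTGA with a G before it and a C after it. Each word reads the same on both strands, and each longer word contains the shorter ones. Only the first promoter listed for each gene was searched, so words at any other start sites are not counted.

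The E-box was in 10 of the 39 promoters (25.6%), beside 8.95% of 13933 promoters of genes in the table and 10.6% of the 7604 whose mean reached 100. TCACGTGA was in 7 (17.9%, beside 1.47% and 2.16%), and the full palindrome in 4 (10.3%, beside 0.589% and 0.868%). As the element is known from many lysosomal genes, these shares say nothing about the knockdown. Among the lysosomal genes, the E-box was in 4 of 14 lowered, 0 of 2 raised and 6 of 23 that did not pass. The full palindrome was in none of the 14 lowered and in 4 of the 23. Windows of 30 bases around the longest word found are printed to show these 10 promoters side by side, 5′ to 3′ on the gene's strand with the word in capitals. Only the first site of that word is shown. CTSD and NEU1 held 1 E-box each, LAMP1 6 and IGF2R 3. CTSA, CLN3, GAA, GALNS, MCOLN1 and CTSF held 2 each. The lowered genes come first.
CTSA, chr20:45891298-45891327, plus strand: ggcgccggagtTCACGTGActcgtacacat
CLN3, chr16:28492058-28492087, minus strand: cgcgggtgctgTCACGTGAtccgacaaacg
CTSD, chr11:1763957-1763986, minus strand: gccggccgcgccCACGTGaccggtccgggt
NEU1, chr6:31862930-31862959, minus strand: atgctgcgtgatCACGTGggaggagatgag
The genes that did not pass follow.
GAA, chr17:80101493-80101522, plus strand: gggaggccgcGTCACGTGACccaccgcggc
GALNS, chr16:88857104-88857133, minus strand: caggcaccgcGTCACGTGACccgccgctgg
IGF2R, chr6:159969042-159969071, plus strand: ccgggcggctGTCACGTGACgcggttccgg
MCOLN1, chr19:7522598-7522627, plus strand: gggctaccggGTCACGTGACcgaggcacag
LAMP1, chr13:113297199-113297228, plus strand: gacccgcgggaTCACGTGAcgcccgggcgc
CTSF, chr11:66568712-66568741, minus strand: acatataacaagCACGTGatagaggtcagt
None of the 4 genes with the full palindrome passed, and their log2 fold changes were 0.27 for GAA, -0.25 for GALNS, -0.28 for IGF2R and 0.10 for MCOLN1 in the authors' deposited table. At a threshold of 0.1, GAA (adjusted p = 0.0588) would be raised and IGF2R (adjusted p = 0.0643) lowered. The promoters of LAPTM5 and CD68, the genes with the largest falls, hold none of the 3 words.

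The word GATTGAA was in the 3′ untranslated regions of 24.7% of 1481 lowered genes and of 9.48% of all 16151 genes with an annotated region. It was in 1 of the 20 lowered lysosomal genes, LAPTM4B, in 0 of 2 raised ones and in 4 of 29 that did not pass (CTSC, CTSO, IDS and MANBA). The regions of the lowered lysosomal genes had a median of 922 bases, beside 1875 for all lowered genes and 1251 for all genes. The word was chosen from earlier results of these data. LAPTM5, CD68 and CTSD do not hold it.

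Both accessory proteins of the proton pump fell. ATP6AP2, also known as the prorenin receptor, fell by 0.37 ± 0.12 (adjusted p = 0.00263), and ATP6AP1, an assembly factor, by 0.28 ± 0.13 (adjusted p = 0.0435), in the authors' deposited table. Of 15 subunits of the V-ATPase itself, 4 rose, none fell and 11 did not pass, beside 4.62% and 7.93% of all genes raised and lowered. Among genes whose mean reached 100, as did those of all 15, the shares were 7.45% raised and 12.4% lowered. The median log2 fold change of the 15 was -0.03, with 9 below 0, and the difference between subunits and accessory proteins was not tested. ATP6V0E2 rose by 0.81 ± 0.14 (adjusted p = 6.34e-09) and ATP6V1G1 by 0.57 ± 0.22 (adjusted p = 0.00452) in the authors' deposited table. ATP6V0D1 and ATP6V0A2 rose by 0.27 each (adjusted p = 0.0150 and 0.0176) in the authors' deposited table. In the Wald test ATP6V0E2 alone of the 4 passed, and of the accessory genes ATP6AP2.

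Of 29 further lysosomal genes, mostly of hydrolases, 8 fell (27.6%) and none rose, beside 7.93% of all genes lowered and 12.4% of those whose mean reached 100. Their median log2 fold change was -0.13. LGMN, the asparaginyl endopeptidase legumain, fell by 0.90 ± 0.14 (adjusted p = 2.73e-10) and EPDR1 by 0.74 ± 0.17 (adjusted p = 1.67e-05) in the authors' deposited table. HGSNAT, an acetyltransferase of heparan sulfate breakdown, fell by 0.67 ± 0.15 (adjusted p = 7.43e-06) and GLMP by 0.57 ± 0.14 (adjusted p = 7.35e-05) in the authors' deposited table. Of 29 other membrane proteins and transporters, 6 fell (20.7%) and none rose, and their median was -0.02. OSTM1, the partner of the chloride transporter ClC-7, fell by 1.43 ± 0.16 (adjusted p = 2.10e-18), and NPC1, which exports cholesterol from the lysosome, by 0.69 ± 0.13 (adjusted p = 4.19e-07), in the authors' deposited table. MFSD1 fell by 0.60 ± 0.16 (adjusted p = 0.000138) and the calcium and sodium channel gene TPCN1 by 0.47 ± 0.11 (adjusted p = 5.29e-05) in the authors' deposited table.

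The lists of genes that deliver to, regulate or fuse with lysosomes are read beside 7.93% of all genes lowered and 4.62% raised. Of the 87 genes measured in the tagging, mTORC1, autophagy and fusion lists, 10 were called (11.5%), beside 12.5% of all genes. Of 19 genes of mannose 6-phosphate tagging and sorting, 1 fell: GNPTAB, which makes the tag (-0.30 ± 0.11, adjusted p = 0.0129, in the authors' deposited table). Of 22 genes of mTORC1 and its control of the TFE factors, 3 fell and 1 rose. FLCN (-0.34, adjusted p = 0.00256), TSC2 (-0.29, adjusted p = 0.0106) and RPTOR (-0.22, adjusted p = 0.0138) fell in the authors' deposited table. MITF, a relative of TFEB, rose by 0.77 ± 0.14 (adjusted p = 3.93e-08) in the authors' deposited table. Of 28 autophagy genes, 1 fell and 2 rose, with a median of 0.00. ATG5 fell by 1.00 ± 0.17 (adjusted p = 7.93e-09), while its conjugation partner ATG12 rose by 0.66 ± 0.14 (adjusted p = 2.33e-06) and the autophagy receptor gene TAX1BP1 by 0.37 ± 0.17 (adjusted p = 0.0268), in the authors' deposited table. Of 18 genes of late endosome fusion, VPS41 fell by 0.53 ± 0.17 (adjusted p = 0.00108) and BLOC1S2 rose by 0.33 ± 0.13 (adjusted p = 0.0172) in the authors' deposited table. Of 6 cystatins, inhibitors of cysteine cathepsins, 2 fell: CST3, by 0.41 ± 0.13 (adjusted p = 0.00202), and CST4, by 1.18 ± 0.48 (adjusted p = 0.00175) at a mean of 27.4, in the authors' deposited table. The calls of GNPTAB, TSC2, RPTOR, TAX1BP1, BLOC1S2 and CST4 were lost in the Wald test.

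**Figure D3:**
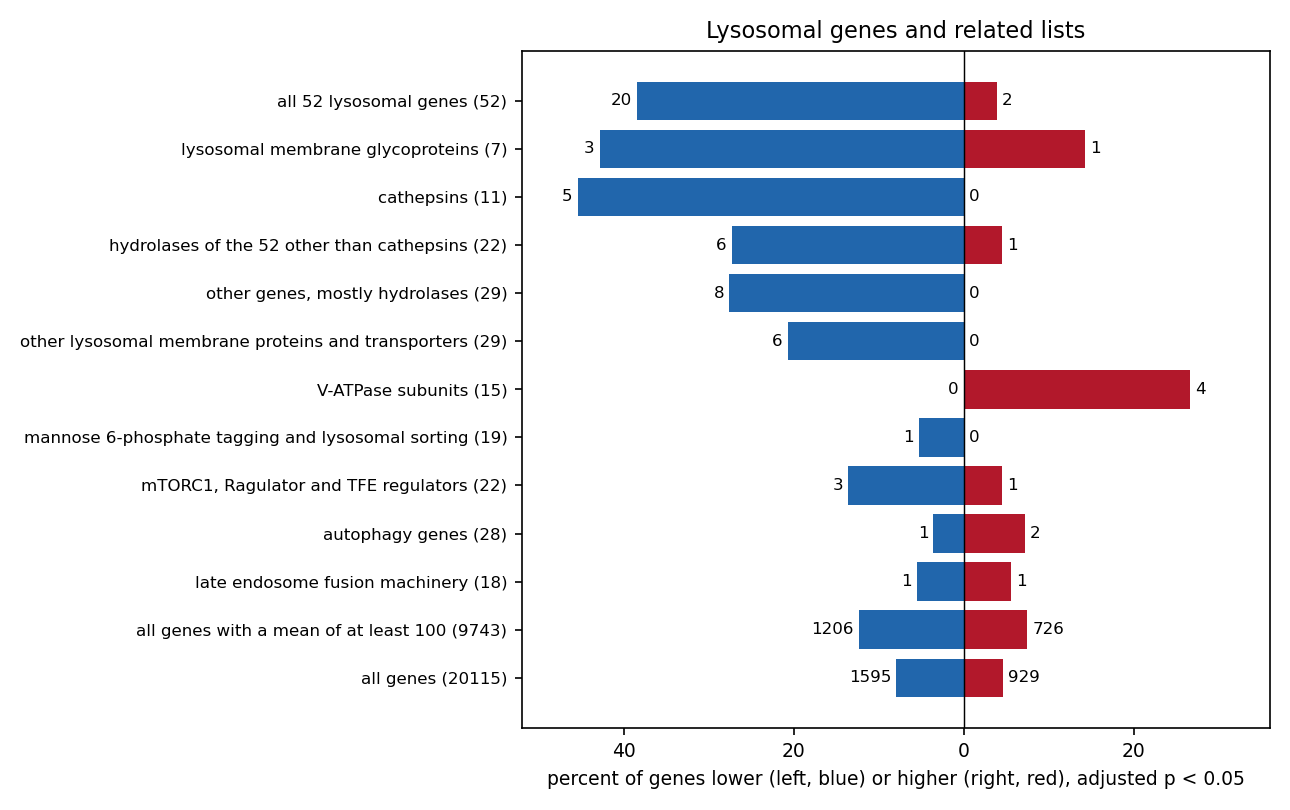
Percent of genes lower (to the left) or higher (to the right) by the adjusted p of the authors' deposited table, with the number of genes at each bar's end and the number measured in brackets. The 52 lysosomal genes have 20 lower and 2 higher, the V-ATPase subunits 0 and 4, and the lowest bars give all genes.

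Readthrough of 3 lysosomal genes was measured, and 1 of their DoG regions fell, where 16.1% of all DoG regions were lowered. The region of PPT1, a thioesterase that removes fatty acids from proteins, fell by 0.42 ± 0.15 (adjusted p = 0.00537) at a mean of 2641 counts in the authors' deposited table. The PPT1 gene had a log2 fold change of 0.24 ± 0.11 (adjusted p = 0.0535) at a mean of 988 in the authors' deposited gene table. The difference, region minus gene, was -0.66 ± 0.19 (adjusted p = 0.00887, two-sided normal test with Benjamini-Hochberg adjustment over 1798 regions), where 4.62% of regions were called lower than their gene. PPT1 lies tail to tail with CAP1, whose exons on the opposite strand overlap 23.4% of those of PPT1. CAP1 had a log2 fold change of -0.22 ± 0.13 (adjusted p = 0.142) at a mean of 3884 in the authors' deposited table. The libraries were stranded, but the sources used here do not say whether counting used the strand. The part of CAP1 reads in the PPT1 values was not tested.

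The regions of CTSZ and SGSH did not pass, although both genes were lowered. The CTSZ region had a log2 fold change of -0.14 ± 0.12 (adjusted p = 0.312) beside -0.61 for the gene in the authors' deposited tables. The SGSH region had one of 0.06 ± 0.16 (adjusted p = 0.790), with the gene at -0.51, again from the authors' deposited table. The differences, region minus gene, were 0.47 ± 0.23 (adjusted p = 0.248) for CTSZ and 0.57 ± 0.26 (adjusted p = 0.193) for SGSH by the same test, and neither passed, where 4.06% of regions were called higher than their gene. Both genes also have an opposite-strand gene at their end: the end of NELFCD lies 52 bases past that of CTSZ, and NELFCD had -0.01 ± 0.10, and CARD14 overlaps SGSH and had 0.08 ± 0.21, in the authors' deposited table. On the strand of SGSH itself, GENCODE places the gene model AC087741.1 767 bases past its end. That model has no value in the gene table, and its part in the SGSH region was not tested.

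**Figure D4:**
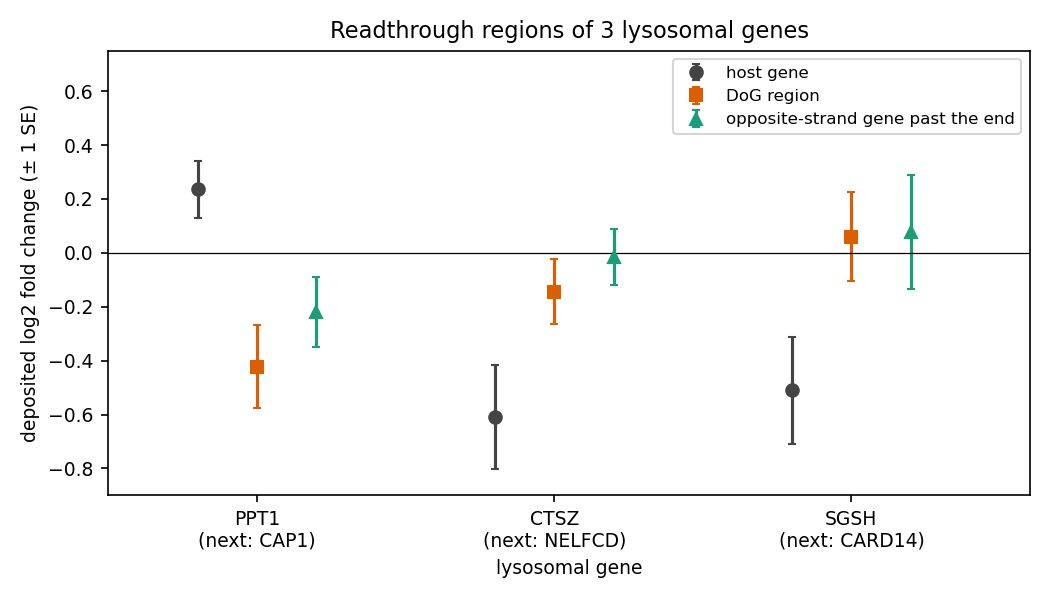
Log2 fold change with 1 SE of the host gene (circle), its DoG region (square) and the opposite-strand gene at its end (triangle) for PPT1, CTSZ and SGSH. The PPT1 region lies at -0.42 and its host at 0.24, whereas the CTSZ and SGSH regions lie above their hosts.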

How the data were processed

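Per the labels' protocols, ribosomal RNA was removed from total RNA, random primers were used for cDNA, and stranded paired reads of 75 bp were made. Tools named in the submitters' processing notes are cutadapt 1.8.1, STAR 2.5.2b and DESeq2, with build hg38. Which annotation, counter, strand setting, DoG caller and filters were used is not given in the sources used here. For every gene or DoG region the authors deposited values, per the file headers: the mean normalized count across libraries, treated as a signal, the log2 fold change with its SE, the p-value, and its adjusted p-value. Recomputing the Benjamini-Hochberg adjustment over all 20115 genes gave the deposited adjusted values. The lowest deposited mean is 7.74 in the gene table and 21.8 in the DoG table. In 20112 genes the change over its SE is smaller than the p-value implies, so the changes are shrunken.

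Calls use the deposited adjusted p with a threshold of 0.05. The 52 genes and the further lists were chosen with earlier results of these data known. Named are all of the 52 that passed, up to 4 others per role by mean count, the TFE factors, LAPTM, LAMP1, LAMP2 and receptor genes in any case, the 3 nearest outside the threshold, UBE3D, CPSF3, and up to 4 called genes per further list by p-value. MDA-MB-231 and macrophage markers, overlapping genes and genes named for a sequence word or for their level fall outside this rule. A region and its gene were compared by their difference over the root of the summed squared SE, which leaves out their covariance. Positions, exon lengths and untranslated regions come from GENCODE 29 (GRCh38), matched by symbol for 18430 genes, and the authors may have used another annotation. Steps were tested on simulated data. Software was scipy 1.17.1, pandas 2.3.3 and numpy 2.4.6 under Python 3.11.15. Alternatives were other thresholds, a Wald test on the deposited change and SE, that test after a shift to a median of 0 of genes whose mean reached 100 (or, chosen after seeing the data, of all genes), and a minimum mean of 100.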

Additional observations from a re-analysis of the deposited data

How the results depend on the processing

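The count of lowered lysosomal genes was 20 at an adjusted p under 0.05, 15 at 0.01, 22 at 0.1 and 22 when only genes whose mean reached 100 were tested. With a Wald test on the deposited change over SE it was 13, 13 with changes also shifted to a median of 0 of the genes whose mean reached 100, whose median was 0.00051, and 8 with a shift to a median of 0 of all genes (-0.03), which was chosen after seeing the data. That Wald test can only weaken calls, as the changes are shrunken. The count raised was 2, and became 0 at 0.01, 0 with each Wald test, 4 at 0.1 and 4 at a mean of at least 100. The 4 genes that passed at 0.1 or at a mean of at least 100, but not at 0.05 over all genes, were PPT1 and GAA (raised) and HEXA and IGF2R (lowered). LAPTM5, CD68, CTSA, CTSD, CTSZ, NEU1, FUCA1 and GRN kept their call under all 6 settings. The 22 lowered and 8 raised genes of the further lysosomal, mTORC1, autophagy, endosome and cystatin lists became 13 and 3 with the Wald test unshifted or with the first shift, and 10 and 3 with the all-gene shift, and the raised count was 4 at 0.01. The difference between the PPT1 region and gene was -0.67 (adjusted p = 0.00711) with each table shifted to a median of 0 over all its rows. No paired analysis was possible because the tables hold no value per library, and for the same reason no replicate could be left out. Depth per library is unknown, and precision can be read from the SE alone.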
